A study of Homo sapiens with 7 samples.

Results

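GATA6 peaks were examined at 9 genes of the Wnt pathway in the human cell line LS174T, which was established from a colorectal carcinoma. GATA6 is a transcription factor with zinc fingers that binds GATA sequences and acts in tissues of endodermal origin, the gut among them. The study sequenced 3 libraries of chromatin precipitated with an anti-GATA6 antibody (R&D AF1700), 1 input library without antibody, and 1 library each for H3K27ac, H3K4me3 and H3K4me1. All cells were of this single line, grown in serum-containing medium and cross-linked with formaldehyde, with no treatment or genotype contrast. The input and histone libraries were not analysed here. Members were the rows of the GATA6 peak list whose summit lay inside 1 of 9 hg19 windows drawn around AXIN2, RNF43, ZNRF3, LGR4, TCF7L2, LEF1, TCF7, NKD1 and APCDD1. Of the 7568 peaks in the list, 48 (0.634%) were members, in 3.48 Mb of sequence. A single list was deposited for GATA6, so spread between libraries could not be measured, and no test between groups of samples was possible. The file holds no expression values, so the cell type was not checked against marker genes.

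Wnt signalling is a main growth signal of the intestinal crypt. Wnt ligands bind Frizzled receptors, which stops a destruction complex from degrading β-catenin, and β-catenin then enters the nucleus and activates target genes with the TCF/LEF factors. Several targets encode brakes on the pathway, which gives negative feedback. LS174T is a line in which the pathway is known to be active through a mutation that stabilises β-catenin.

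The peak sequences are not shown because no hg19 genome was used. Sequence was read only for promoters, which RefSeq (GRCh38.p14) gave for 6 of the 9 genes, in 10 windows of 300 bases (250 before and 50 after a gene start). They were searched on both strands for the GATA letters AGATAA or AGATAG or TGATAA or TGATAG, and for the TCF letters CTTTGAA or CTTTGAT. The TCF and GATA letters may overlap, since CTTTGAT ends as TGATAA begins. GATA letters were in 3 of these 10 promoters, against 25% of all 35116 promoters in the table. TCF letters were in 0 of 10, against 6.86% of all promoters. The matches, all after the gene start, are printed below with 30 bases each, 5′ to 3′ on the strand of the gene, with the matched letters in capitals. They show the letters searched, and they are not placed against any peak, since the peaks are in hg19. Positions count from 1 at the first transcribed base.

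RNF43, minus strand, base 33: tgaatagacaatTTATCAtttgaagaaaat

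TCF7L2, plus strand, base 14: ttgtgctcttccCTATCAagcgagataatt

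TCF7L2, same promoter, base 24: ccctatcaagcgAGATAAttctgtgaatgg

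TCF7L2, a further promoter, base 1: tgacaatcttgcAGATAAagtgcctgcctc

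In RNF43 and at base 14 of TCF7L2 the match read as the reverse complement of TGATAA and TGATAG. Over the full 300 bases, the share with GATA letters among these promoters was close to that of all promoters. In the 250 bases before the gene start it was 0 of 10, against 22.3% of all promoters, and the difference was not tested. The 3 promoters with GATA letters belong to 2 genes. LGR4, LEF1, TCF7 and APCDD1 had neither set of letters in their promoters.

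Peaks were unevenly spread over the 9 loci. AXIN2 held 23 peaks, RNF43 7, ZNRF3 6, LGR4 4, TCF7L2 3, NKD1 3, LEF1 1, TCF7 1 and APCDD1 0. To set these counts in context, every window of the same size was counted, with starts 10 kb apart from the first summit of a chromosome to its last, over chromosomes 1 to 22 and X. The 9 windows together held 48 peaks, where the mean of same-size windows gave 9.01, a ratio of 5.33. Without AXIN2, 25 peaks stood against 6.42, a ratio of 3.89, and without AXIN2 and RNF43 18 stood against 5.72, a ratio of 3.14. These are descriptions, since the windows were drawn with earlier counts of these data known, and windows of gene deserts and assembly gaps were among those counted. Windows that overlap the locus itself were also counted, and they weigh more in shares on 1 chromosome alone.

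At 3 loci, AXIN2, RNF43 and ZNRF3, at most 5% of same-size windows held as many peaks. By role, the receptor-level loci (RNF43, ZNRF3 and LGR4) held 17 peaks, or 17.7 per Mb, at 6.84 times the mean. The intracellular and membrane inhibitors (AXIN2, NKD1 and APCDD1) held 26 peaks, 23 of them at AXIN2. This was 17.0 per Mb, at 6.56 times the mean, with AXIN2 at 8.89, NKD1 at 3.99 and APCDD1 at 0 times. At the 3 TCF/LEF genes there were 5 peaks, or 5.05 per Mb, at 1.95 times the mean. The roles were added after the values were seen, and the difference between them was not tested.

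**Figure D1:**
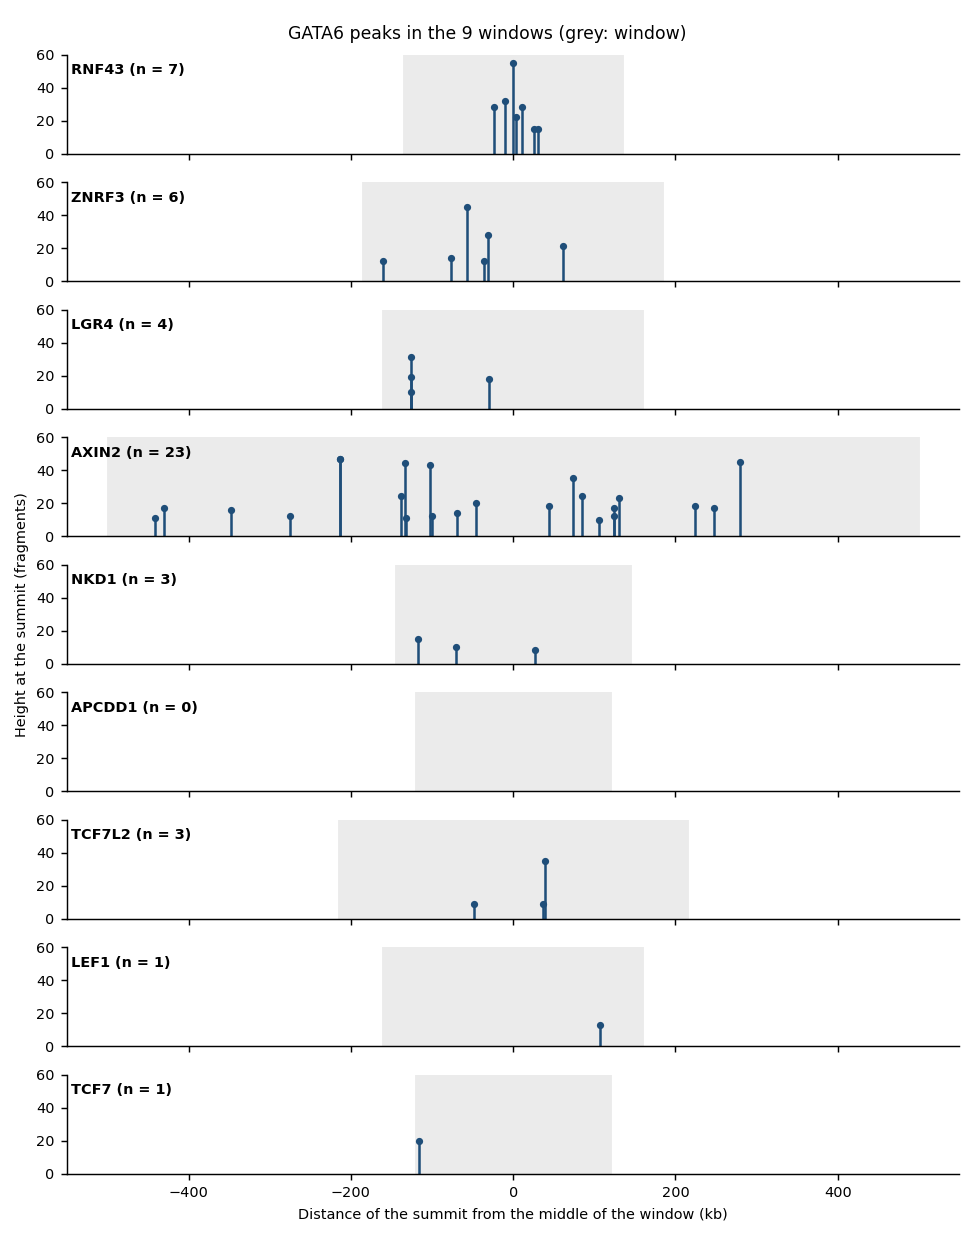
Position and height of each GATA6 peak, as distance of its summit from the middle of its window (kb, x axis) and height in fragments (y axis), with 1 row per locus and the window in grey. The 7 RNF43 peaks sit within 53.4 kb in the middle of the window, those of AXIN2 are spread over 721 kb, and APCDD1 has none.

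RNF43 encodes a transmembrane ubiquitin ligase that removes Frizzled receptors from the cell surface, and it is itself a Wnt target. Its window (chr17:56330000-56600000) held 7 peaks, or 25.9 per Mb. At least as many peaks were found in 0.545% of windows of 0.27 Mb, and in 1.38% of those on chromosome 17 alone. Windows that overlap the RNF43 or AXIN2 window, both on chromosome 17, were among those counted. With comparison windows that overlap none of the 9 windows, the share was 0.518% over all chromosomes. All 7 summits lay within 53.4 kb, 19.8% of the window, and the widest gap between neighbours was 14.3 kb. Linked within 10 kb, 3 of them formed a group from 56465108 to 56476430. RefSeq gives the gene a length of 65.0 kb in GRCh38, with SUPT4H1 and HSF5 as its coding neighbours, but the peaks were not placed against its exons.

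The tallest member of all loci was at RNF43, from 56465108 to 56465584. It had a height of 55 fragments (95% Poisson interval 41.4 to 71.6), a fold of 39.38 over the local background and a −log10 p of 67.31, rank 105 of the list. In order along the chromosome, the 7 summits had heights of 28, 32, 55, 22, 28, 15 and 15 fragments. The central peak therefore stood above its neighbours, although its interval overlapped that of the second, 21.9 to 45.2. Folds in the same order were 14.58, 26.18, 39.38, 5.51, 23.94, 13.22 and 12.82. The other peaks of the window lay from 56441705 to 56441977, from 56455082 to 56455401, from 56475983 to 56476430, from 56490365 to 56490573 and from 56495129 to 56495382. The low fold of 5.51, from 56468912 to 56469159, came with a local background of 3.99 fragments, a level that among members was also found at 1 LGR4 peak. All 7 backgrounds were above the list median of 1.05, from 1.13 to 3.99 fragments.

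ZNRF3 encodes a ligase related to RNF43 with the same action on Frizzled. Its window (chr22:29180000-29550000) held 6 peaks, a number reached by 2.04% of windows of 0.37 Mb. Heights in order were 12, 14, 45, 12, 28 and 21 fragments, with folds of 12.03, 14.03, 15.04, 11.46, 29.16 and 10.52. The −log10 p values were 10.21, 12.54, 37.11, 9.94, 31.86 and 15.28. A group of 2 peaks lay from 29329398 to 29334596, and the widest gap between neighbours was 91.5 kb. The tallest, from 29308205 to 29308616, had 45 fragments (32.8 to 60.2) but a fold of only 15.04, at a background of 2.99. The peak from 29334272 to 29334596 was lower, at 28 fragments (18.6 to 40.5), yet its fold was 29.16, at a background of 0.960. Height and fold thus ordered the ZNRF3 peaks differently. The others among the best 5 at this locus lay from 29204749 to 29204990, from 29288442 to 29288713 and from 29425810 to 29426236. The first peak lay 24.8 kb from the window's edge. With 50 kb taken off each end 5 peaks were left, a number reached by 2.01% of windows of that shorter size. The share was 0.556% on chromosome 22 alone, nearly all of it from windows that overlap the ZNRF3 window itself. It was 1.99% with comparison windows that overlap none of the 9 windows, and 3.29% with 50 kb added at each end. It was 4.12% among peaks at or above the median −log10 p, and 4.51% among windows that held any peak, close to the 5% limit. The neighbouring coding genes were XBP1 and C22orf31.

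LGR4 is a receptor for R-spondins, and with R-spondin bound it clears RNF43 and ZNRF3 from the membrane and so sustains signalling. Its window (chr11:27280000-27600000) held 4 peaks, a number reached or passed in 5.34% of windows of 0.32 Mb. There, 3 of the 4 peaks lay within 913 bp, with heights of 10, 19 and 31 fragments and folds of 11.46, 9.52 and 31.07. The best of them, from 27314289 to 27314698, reached a −log10 p of 35.86. Counted as 1 after joining summits within 1 kb, they left 2 peaks, a number reached or passed in 19.5% of windows. The same 3 peaks were 33.5 to 34.5 kb from the window's edge, and with 50 kb taken off each end 1 peak was left. The remaining peak, from 27410534 to 27410877, had 18 fragments at a background of 3.99, and its fold of 4.51 ranked 7496 of 7568. After it, no summit was listed for 5.01 Mb, and 24 of the 7539 intervals between neighbouring summits, this one included, were at least as long. Just outside the window, 20.6 kb before it, was a summit with 13 fragments and a fold of 17.32. CCDC34 and LIN7C flank the gene.

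AXIN2 encodes a scaffold of the β-catenin destruction complex and is a widely used reporter of Wnt activity. Its window (chr17:63000000-64000000) held 23 peaks, 47.9% of all members. At least as many were in 0.0602% of windows of 1 Mb, and in 0.497% of those on chromosome 17. Windows that overlap the AXIN2 window itself were among those counted. The chromosome 17 share came from such windows, so it is not a share of other windows. With comparison windows that overlap none of the 9 windows, the share was 0.0468% over all chromosomes. The AXIN2 window coincides with a bin already known as one of the densest in the list, so its rank is not a separate result. The gene takes up 33.1 kb, 3.31% of the window, and its coding neighbours are RGS9 and CEP112, so most of the window was not AXIN2 itself.

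Within the AXIN2 window, heights ran from 10 to 47 fragments with a median of 18, and 5 of the 23 peaks reached 40 fragments, while 13 were under 20. In the whole list 5.71% of peaks reached 40, and most were under 20, since 19 fragments ranked 2589 of 7568 from the tallest. The best peak, from 63286675 to 63287112, had 47 fragments (34.5 to 62.5), a fold of 44.87 and a −log10 p of 60.57. Its neighbour at a distance of 565 bp, from 63286136 to 63286539, had the same 47 fragments but a fold of 23.56. Their backgrounds were 1.05 and 1.99 fragments, so the folds of this pair differed with equal heights. The next by −log10 p were the peaks from 63779944 to 63780328 (45 fragments, fold 22.55), from 63366803 to 63367121 (44, fold 21.00) and from 63573117 to 63573476 (35, fold 35.08). The intervals of these 5 heights all overlapped. At the other end, the peaks from 63058743 to 63058917 and from 63623775 to 63623973 had 11 and 12 fragments and folds of 5.51 and 5.73, among the lowest of the members.

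The AXIN2 peaks formed 17 groups when summits within 10 kb were linked. The most peaks were in 2 groups of 3, from 63361999 to 63367821 with a tallest peak of 44 fragments, and from 63623775 to 63630930 with a tallest of 23. The closest summits in the window were 266 bp apart. The widest gap between neighbours was 93.3 kb. On both sides of the middle of the window there were 13 and 10 peaks. The densest 0.24 Mb of the window held 11 peaks, a number reached by 0.0290% of windows of that size. This stretch was chosen by its count, so its share is not a separate result. The local background was above the list median in 16 of 23 peaks, with a median of 1.57 fragments against 1.05 in the whole list and 0.998 on chromosome 17. The part of this in the number of peaks was not tested.

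NKD1, which binds Dishevelled and dampens Wnt signalling, had 3 peaks in its window (chr16:50480000-50770000), a number reached by 8.79% of windows of 0.29 Mb. Against chromosome 16 alone the share was 4.93%, since that chromosome held fewer peaks. The peaks were low, with 15, 10 and 8 fragments, whereas their folds were 28.64, 17.36 and 11.46. All 3 had backgrounds below the list median, from 0.524 to 0.698 fragments. The highest lay from 50508067 to 50508361, with an interval of 8.40 to 24.7 fragments that overlapped that of the lowest, 3.45 to 15.8. They stood apart from each other, at least 46.4 kb between summits. BRD7 and SNX20 are the neighbours of NKD1.

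APCDD1 encodes a membrane glycoprotein that binds Wnt ligands and inhibits the pathway. No peak was listed in its window (chr18:10350000-10590000), and 65.8% of windows of 0.24 Mb held none either. The nearest summits lay 218 kb before the window, with 16 fragments and a fold of 32.7, and 160 kb after it, with 9 fragments and a fold of 9.02. The peak-free interval around it was 619 kb long, and 17.8% of the intervals between neighbouring summits were at least as long. A list of peaks holds only regions that passed the authors' threshold, so weaker binding at APCDD1 was not measured.

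**Figure D2:**
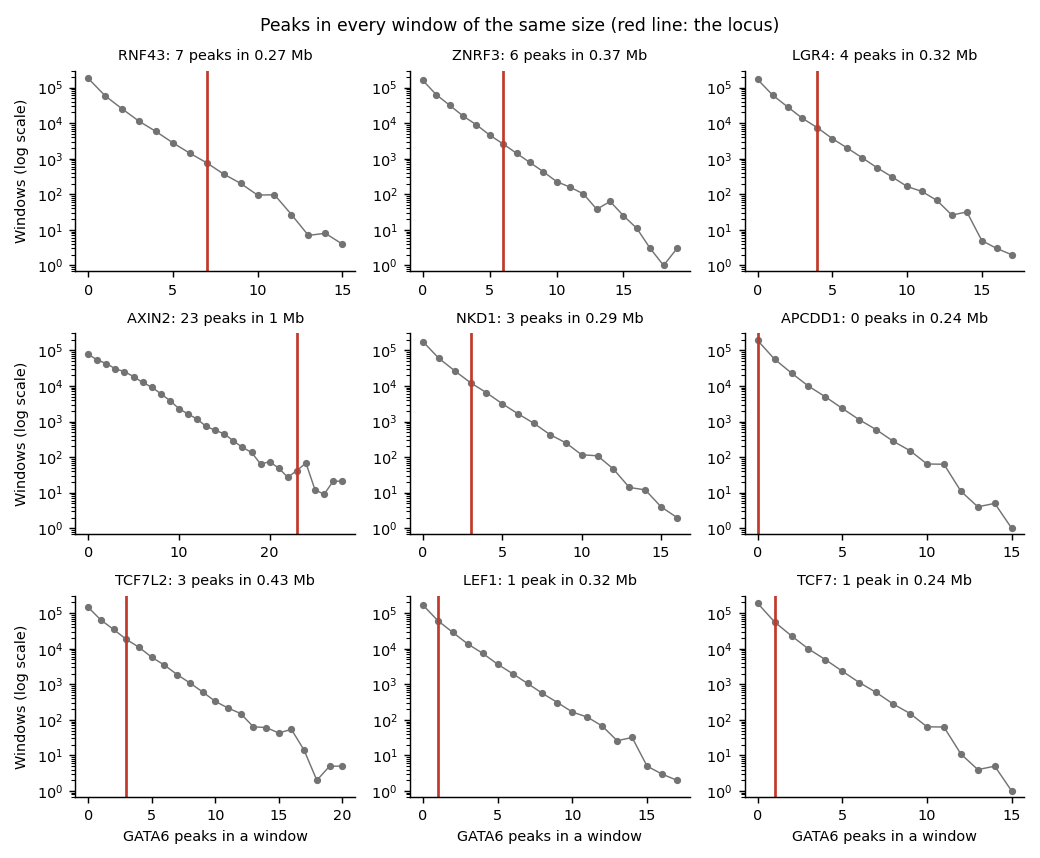
Number of windows (y axis, log scale) by the number of GATA6 peaks they hold (x axis), over every window of the size of each locus, with the locus as a red line. AXIN2, RNF43 and ZNRF3 lie in the right tail, while the counts of LEF1, TCF7 and APCDD1 are common.

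The TCF/LEF genes encode the DNA-binding partners of β-catenin. TCF7L2, the main member of the family in intestinal epithelium, had 3 peaks in its window (chr10:114600000-115030000), a number reached or passed in 15% of windows of 0.43 Mb. The tallest, from 114853443 to 114853798, had 35 fragments (24.4 to 48.7) and a fold of 11.69, at a background of 2.99. Its neighbour at 1796 bp and the peak from 114767151 to 114767337 each had 9 fragments (4.12 to 17.1), with folds of 9.02 and 11.99. The 35 fragments of the tallest lay above both intervals, but its fold lay between those of the other two. RefSeq gives TCF7L2 a length of 217 kb, 50.6% of the window, next to VTI1A and HABP2.

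LEF1 had 1 peak in its window (chr4:108870000-109190000), from 109136292 to 109136532, with 13 fragments (6.92 to 22.2), a fold of 13.03 and a background of 0.998. At least 1 peak was in 41.3% of windows of 0.32 Mb. TCF7 also had 1 peak (chr5:133350000-133590000), from 133354265 to 133354524, with 20 fragments (12.2 to 30.9), a fold of 10.02 and a background of 2.00. At least 1 peak was in 34.2% of windows of 0.24 Mb. That TCF7 peak lay 4.35 kb inside the edge, and just outside the opposite edge, at 45.6 kb, was a taller summit with 36 fragments and a fold of 57.28. Which of them counts toward TCF7 depends on the limits of the window, and with the window shortened by 50 kb at each end it held 0 peaks. The counts of LEF1 and TCF7 were thus common ones.

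As a set, the 48 peaks were close to the list in their scores. The median height was 18 fragments (95% order-statistic interval 15 to 23), against 16 in the whole list. Median fold was 12.93 (11.46 to 15.27), against 14.03, and median −log10 p was 13.72, against 12.98. Widths ran from 175 to 477 bp, with a median of 273 bp against 251 bp. Of the members, 16 of 48 (33.3%) lay above a −log10 p of 20.41, the upper quartile of the list, and the difference from the list was not tested. Of those 16, 8 were at AXIN2 and 7 at the receptor-level loci. None was among the best 1% of the list, and 4 were among the best 5%. Outside AXIN2 and RNF43, 4 of 18 peaks (22.2%) passed that quartile, a difference between loci that was not tested. These 18 had a median height of 14.5 fragments, below that of the list.

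The best peak of each locus was set against the best peak of same-size windows. A peak at least as good by −log10 p was in 2.59% of the same-size windows that held any peak for RNF43, and in 7.06% for AXIN2. For ZNRF3 the share was 15.0% and for LGR4 15.5%, followed by TCF7L2 at 30.0% and NKD1 at 44.6%. For TCF7 it was 57.1% and for LEF1 73.8%. A locus with more peaks has more chances of a good best peak by construction, so these shares are not separate from the counts.

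Close neighbours were found for a larger share of members than of the list. Of the 48, 22 (45.8%, exact binomial interval 31.4 to 60.8) had another summit within 10 kb, against 27.2% of all peaks. The interval treats peaks as independent, which neighbours are not. The share was 48.0% without AXIN2. Without AXIN2 and RNF43 it was 7 of 18, or 38.9%, with an interval of 17.3 to 64.3 that holds the 27.2% of the list. After joining summits within 1 kb it was 34.9%, against 21.7% in the list so joined. Linked within 10 kb, the members formed 35 groups, of which 26 were single peaks. A region dense in peaks has close neighbours by construction, so this is not separate from the counts.

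**Figure D3:**
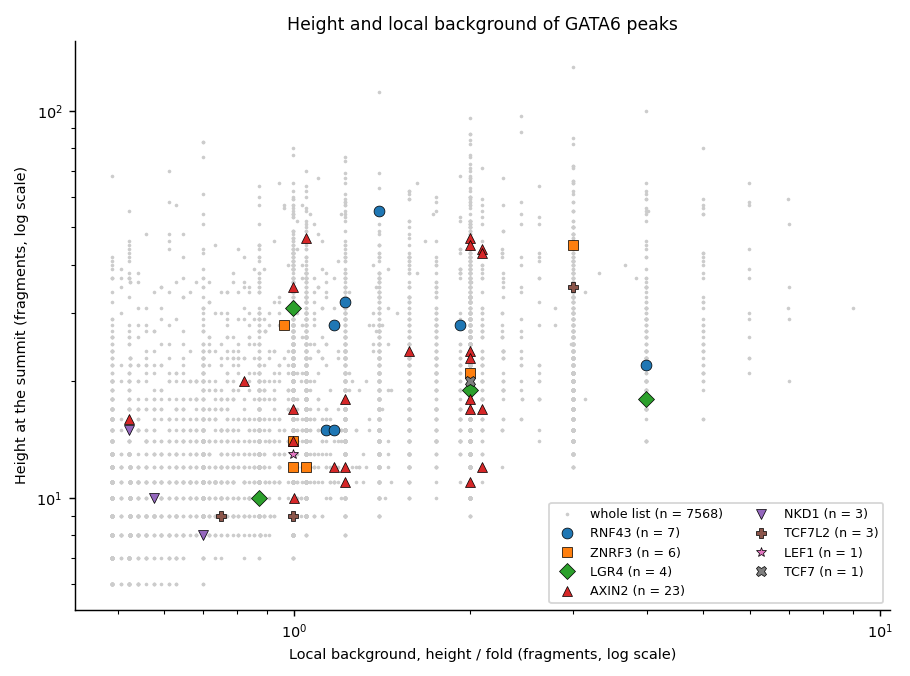
Height of each peak in fragments (y axis, log scale) against its local background, the height divided by the fold (x axis, log scale), for the whole list in grey and the members by locus. Peaks of RNF43 and most of AXIN2 lie right of the list median of 1.05 fragments, and the 3 NKD1 peaks lie left of it.

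The local background differed between loci. Its median over members was 1.22 fragments (95% order-statistic interval 0.998 to 1.99), against 1.05 in the list, which lies within that interval. The background is a coarse measure, since low values such as 0.998, 1.22 and 2.00 fragments recur. Of the members, 29 of 48 (60.4%) were above the list median by more than 1%, against 43.5% of all peaks. At AXIN2 and RNF43 it was 23 of 30. At the other loci it was 6 of 18, or 33.3%. The part of the local background in the counts was not tested.

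With windows of equal size the same 3 loci led. With every window reduced to its middle 0.24 Mb, AXIN2 held 8 peaks, RNF43 7, ZNRF3 5, TCF7L2 3, NKD1 3, LGR4 1, LEF1 1, TCF7 1 and APCDD1 0. Windows of that size held at least 8 peaks in 0.200% of cases, at least 7 in 0.404% and at least 5 in 1.60%. Over 10 settings, the reported one included, AXIN2, RNF43 and ZNRF3 were within the top 5% in all 10. All settings use the same list, and the AXIN2 window was already known as dense, so this is not separate support. LGR4 and NKD1 were within it in 1 each, and TCF7L2, LEF1, TCF7 and APCDD1 in 0.

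**Figure D4:**
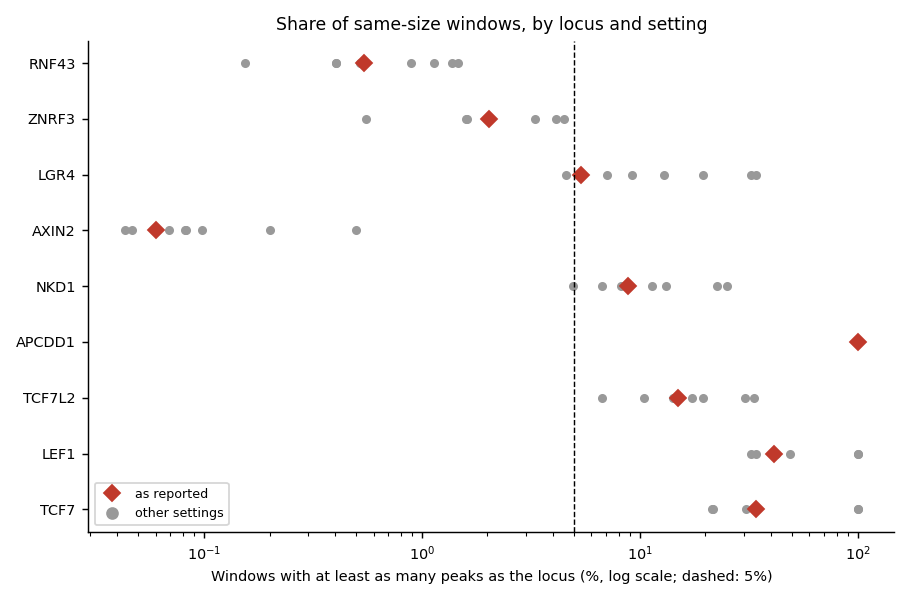
Share of same-size windows with at least as many peaks as the locus (x axis, %, log scale) for each locus (y axis), as reported (red diamonds) and under the other settings (grey circles), with 5% dashed. AXIN2, RNF43 and ZNRF3 stay left of the dashed line under all 10 settings, and LGR4 and NKD1 cross it in 1 each.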

How the data were processed

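The deposited file is a list of GATA6 peaks in hg19 with 1 value per peak. Per the submitters' processing notes, the GATA6 libraries were processed with CASAVA 1.8 and BWA 0.5.9-r16. The sources used here do not give the peak caller, its control or any pooling of the 3 libraries. Library depth is not known. The deposited columns, per the file headers, are a pileup (the height, a coverage signal), a fold enrichment (a linear ratio) and a −log10 p-value. The −log10 q column was not used. These scores are the authors' and serve to describe and rank peaks within the list. Positions count from 1.

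The local background was computed as height divided by fold. Members were found by summit, limits included. Same-size windows were enumerated in place of random draws. The 6 peaks outside chromosomes 1 to 22 and X entered only the statistics of the whole list. Height intervals are exact Poisson intervals at 95% which reflect counting error alone: without molecular identifiers, PCR copies may be counted as separate fragments. Python 3.11.15, pandas 2.3.3 and SciPy 1.17.1 were used, and the window counts were tested on simulated data. The loci, windows and lists were chosen with earlier results of these data known, and the promoter search, the roles and the middle 0.24 Mb were added after the values were seen. By the naming rule, all 9 loci were described, with every peak at loci of 5 or fewer and the best 5 by −log10 p, the largest group of linked peaks and the widest gap elsewhere. Motifs in peaks, gene starts and a wider list of Wnt genes were not analysed, because they need hg19 sequence or annotation. RefSeq tables of GRCh38.p14 gave names, neighbours and gene lengths for all 9 genes.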

Additional observations from a re-analysis of the deposited data

How the results depend on the processing

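The number of loci in the top 5% of same-size windows was 3 or 4 under every setting run that kept all 9 windows. It was 4 on the same chromosome only (with NKD1) and with windows lengthened by 50 kb at each end (with LGR4). The ratio of the 48 peaks to the mean of same-size windows, 5.33, went to 3.89 without AXIN2 and to 3.14 without AXIN2 and RNF43, a setting added after the values were seen. Under the other settings for which it was computed, this ratio ranged from 4.50 to 6.29. It was not computed among windows that hold a peak. There the ratio fell from 8.89 to 6.49 for AXIN2, from 10.0 to 3.71 for RNF43 and from 6.26 to 2.83 for ZNRF3. Of single loci, LEF1 fell from 1.21 times the mean to 0.499 among windows that hold a peak, to 0.919 with lengthened windows and to 0 among the better-scoring peaks. TCF7 fell from 1.61 to 0.551 among windows that hold a peak, and to 0 with windows shortened by 50 kb. Both rest on 1 peak. Median height was 2 fragments above the list and median local background 0.175 above it. Without AXIN2 and RNF43 both reversed, to −1.5 and −0.0494 fragments. Their other alternatives, and all those for neighbours, kept the direction. The alternatives for motifs in peaks and for other Wnt genes were not run, since they need hg19 sequence or annotation. No paired analysis was possible because the list has no value per library. Depth is unknown, and a height of 9 carries an interval of 4.12 to 17.1 fragments.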
